A study of Mus musculus with 11 samples.

Results

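The mouse miR-23, miR-27 and miR-24 genes form 2 clusters of 3 hairpins each, Mir23a, Mir27a and Mir24-2 in the one and Mir23b, Mir27b and Mir24-1 in the other. Their small RNA was followed while fibroblasts were reprogrammed towards pluripotency. The 6 genes were chosen by name from the deposited small RNA table, which listed 3859 transcripts, 1924 of them miRNAs. Of the 6, 5 were measured and all 5 passed the filter on low values. Mir24-1 was not analysed here.

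There were 11 libraries, 1 for each stage. Mouse embryonic fibroblasts (MEF) gave 1 library, days 1 to 8 after doxycycline gave 1 each, and an established line of induced pluripotent stem cells (iPSC) and a line of embryonic stem cells (ESC) gave 1 each. All stages are labelled as the Mbd3f/- system, in which 1 copy of Mbd3 is floxed and the other deleted. Mbd3 belongs to the NuRD chromatin repressor, and there was no wild-type group here. The MEF were secondary, and doxycycline switched on an OKSM cassette (Oct4, Klf4, Sox2 and Myc), so that Myc was part of the treatment on every day of the course. The ESC column carries the name of V6.5, a mouse ESC line, which the study's design describes as Mbd3f/- or wild-type. The cells were induced at low oxygen in LIF with serum and moved during the course to LIF with serum replacement and 2i, the inhibitors of MEK and of GSK3; the sources differ on the day of that change. The lines were grown in N2B27 medium with 2i and LIF. Days 3 to 8, iPSC and ESC were plated on irradiated human foreskin fibroblasts, and MEF and days 1 and 2 were not. The feeder, the medium and the later days therefore cannot be told apart, and the part of feeder RNA in the values was not tested.

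A clustered miRNA gene is transcribed as one long primary RNA from which the hairpins are cut, and each hairpin yields a mature strand of which the seed, bases 2 to 8, pairs with target mRNAs. The members of these clusters are known for their expression in endothelium, smooth muscle, fibroblasts and other mesenchymal cells, where they act in angiogenesis, differentiation and metabolism. Myc is known to repress miR-23a and miR-23b, which lifts their block on glutaminase. The 2 clusters are paralogs and encode nearly the same mature strands from different chromosomes.

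The mature 3p strands are printed from RefSeq on GRCm38.p6, 5′ to 3′, with the seed in capitals. They show which members can be told apart in short reads. The RefSeq entries used here hold none for miR-23b-3p. All 6 members were matched by symbol.
miR-23a-3p: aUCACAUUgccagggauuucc
miR-27a-3p: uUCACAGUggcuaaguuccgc
miR-27b-3p: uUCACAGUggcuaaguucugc
miR-24-3p: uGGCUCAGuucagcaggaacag
The miR-27a and miR-27b strands share the seed UCACAGU and differ by C19U alone (position from the 5′ end, the base of miR-27a first). The seed of miR-23a-3p differs from it by U7G (here the base of miR-23a first), so miR-23 and miR-27 have different seeds that are 1 base apart. The strand of miR-24-3p is the same from Mir24-2 and Mir24-1.

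The opposite arms of the hairpins carry more differences. They are printed in the same way, since reads of these arms are the ones that separate the paralogs best.
miR-23a-5p: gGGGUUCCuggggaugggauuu
miR-23b-5p: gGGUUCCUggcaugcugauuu
miR-27a-5p: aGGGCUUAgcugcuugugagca
miR-27b-5p: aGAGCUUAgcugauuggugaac
miR-24-2-5p: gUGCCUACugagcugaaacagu
miR-24-1-5p: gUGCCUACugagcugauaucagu
The 5p arms of miR-27a and miR-27b differ already within the seed, by G3A. The 5p arms of miR-24-2 and miR-24-1 share theirs, UGCCUAC.

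For miR-23 the hairpins of both paralogs are shown, with the longest run that they share in capitals.
Mir23a: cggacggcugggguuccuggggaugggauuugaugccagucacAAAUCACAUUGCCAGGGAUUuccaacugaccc
Mir23b: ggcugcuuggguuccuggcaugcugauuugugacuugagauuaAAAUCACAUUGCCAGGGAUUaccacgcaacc
This run of 20 bases holds the seed of miR-23a-3p. It ends before the 3′ end of that strand, and the 2 hairpins differ at the next base. The longest run shared by the Mir27a and Mir27b hairpins was also 20 bases, and that of the Mir24-1 and Mir24-2 hairpins was 28 bases. How the authors shared reads that match more than one of these loci is not given in the sources used here, so the split of reads within each paralog pair is uncertain, and a difference between paralogs below is a difference between rows of the table.

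Mir23a (chr8:84208518-84208592), Mir27a (chr8:84208672-84208758) and Mir24-2 (chr8:84208815-84208921) lie on the plus strand of chromosome 8 within 404 bases (GRCm38, GENCODE vM21). Mir23a and Mir27a overlap no other annotated gene. Mir24-2 overlaps Mir3074-2 on the opposite strand and, by 2 bases, the lincRNA Gm26532. Mir23b (chr13:63300484-63300557), Mir27b (chr13:63300712-63300784) and Mir24-1 (chr13:63301208-63301275) lie on the plus strand of chromosome 13 within 792 bases. This cluster sits inside the protein-coding gene 2010111I01Rik on the same strand, where Mir23b is intronic and Mir27b and Mir24-1 overlap exons of some transcripts, and inside Fancc on the opposite strand.

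The locus of Mir24-1 carries a further miRNA gene, Mir3074-1, on the opposite strand (chr13:63301199-63301283). It is no member and was chosen after its values were seen. Its hairpin is printed with that of Mir24-1 because the stretch in capitals in Mir3074-1 is the reverse complement of miR-24-3p, capitals in Mir24-1.
Mir24-1: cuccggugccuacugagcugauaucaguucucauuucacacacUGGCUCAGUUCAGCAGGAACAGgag
Mir3074-1: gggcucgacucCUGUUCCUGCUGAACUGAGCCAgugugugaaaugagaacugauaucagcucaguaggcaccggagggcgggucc
The strand setting of the authors' count is not given in the sources used here, and without it reads of Mir24-1 and of Mir3074-1 cannot be told apart.

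The values are FPKM as the authors computed them, in which the fragments of a transcript are divided by its length and by the library's mapped total. From the steps between low values the libraries held an implied 11600000 (MEF) to 21900000 (day 7) mapped reads. The table took 44.9% to 59.2% of them in 9 libraries, but 22.7% on day 7 and 27.7% on day 8. The members are therefore also described as reads per 1000000 implied miRNA reads (miRNA RPM), a scale that does not depend on that share. This scale is relative to all miRNA reads, so a gain of other miRNAs lowers a member's value on it. The lowest implied count of a member was 2285 reads (Mir23b in ESC), and the counting error of a member's value was at most 2.09%. The stages were checked against marker lists. The summed FPKM of 11 pluripotency miRNAs (the miR-290 and miR-302 clusters) was 21449 in MEF and 17739271 in ESC, where Mir295 was listed at 0, and all 11 rose over the course. The summed FPKM of 8 fibroblast and mesenchymal miRNAs was 25552846 in MEF, where Mir143 was listed at 0, then 32738448 to 64944666 on days 1 and 2 and 11370393 to 32675864 on days 3 to 8, and 5 of the 8 fell, or 2 of the 8 when scaled to miRNA reads. On day 8 Mir143 alone read 7360140 FPKM, so 1 row can carry much of a sum and MEF is not like for like with that day. Of the markers of other cells that MEF can hold, 5 of 5 muscle miRNAs and 3 of 7 blood cell miRNAs fell, 0 of 5 neural ones rose or fell, and 4 of 5 epithelial ones rose. Among all transcripts tested 12.5% rose and 10.6% fell. The part of these cell types in the members' levels was not tested.

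Mir27b was by far the most abundant member in every library, and none of the 5 measured members passed the test for a trend over the course. By mean FPKM over the 11 libraries Mir27b ranked 10th among all transcripts, and the other 4 members ranked between 80th and 97th. The highest of the 9 stages of the course was day 3 for Mir23a and Mir27a, day 2 for Mir24-2 and Mir27b and MEF for Mir23b, and the lowest was day 7 or day 8 for all 5. In bulk RNA, fewer cells that express a miRNA and less of it per cell cannot be told apart.

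Mir23a, the first hairpin of its cluster, read 361726 FPKM in MEF, 360179 on day 1, 567090 on day 2, 812366 on day 3, 703337 on day 4, 332093 on day 5, 325227 on day 6, 167004 on day 7 and 219913 on day 8. It was highest on days 3 and 4, and from day 5 to day 8 it was below its level in MEF. Its slope was -0.15 ± 0.09 (SE) log2 units per day (limma, Benjamini-Hochberg adjusted p = 0.290). The p-values here measure the scatter of 9 libraries around a trend, since no stage had a replicate culture.

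Mir27a, which lies next to Mir23a and represses, among others, genes of adipocyte differentiation, had a like course with 372040 FPKM in MEF and 315959, 727670, 852174, 772906, 371694, 443762, 213347 and 220380 on days 1 to 8. It was 2.70-fold higher on day 3 than on day 1, and 3.87-fold lower on day 8 than on day 3. Its slope was -0.12 ± 0.10 (SE) per day (limma adjusted p = 0.434). Leaving out MEF made it -0.19, leaving out day 7 made it -0.08 and leaving out day 8 made it -0.07, and it passed the threshold in none of these. Over all 11 libraries Mir23a and Mir27a had the closest likeness among the members (Pearson r = 0.95 on log2 FPKM and 0.95 on miRNA RPM), as a description of libraries that each row shares.

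Mir24-2, the source of miR-24-3p in this cluster, read 353170 FPKM in MEF and 339354, 632949, 549543, 537999, 254457, 393114, 195693 and 187504 on days 1 to 8. It was highest on day 2, a day earlier than its neighbours Mir23a and Mir27a, and lowest on day 8. Its slope was -0.14 ± 0.08 (SE) per day (limma adjusted p = 0.266).

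Mir23b stood apart in its order of stages, since it was highest in MEF. It read 566973 FPKM in MEF and 384644, 359529, 518394, 504875, 330730, 270820, 121834 and 184967 on days 1 to 8. The value in MEF was 3.07-fold that of day 8. Its slope of -0.22 ± 0.08 (SE) per day was the steepest of the 5 and did not pass the threshold (limma unadjusted p = 0.0212, adjusted p = 0.0765). Without day 7 and day 8 it was -0.11 per day.

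Mir27b read 8288600 FPKM in MEF and 6348120, 11601200, 7980730, 11091200, 6822400, 9550760, 3251540 and 3517440 on days 1 to 8. It alternated from day to day, with highs on days 2, 4 and 6 and lows on days 1, 3, 5 and 7. Its slope was -0.14 ± 0.09 (SE) per day (limma adjusted p = 0.270). Its 3p strand differs from that of Mir27a by the 1 base printed above, and how reads of this strand were split between the rows was not tested.

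**Figure D1:**
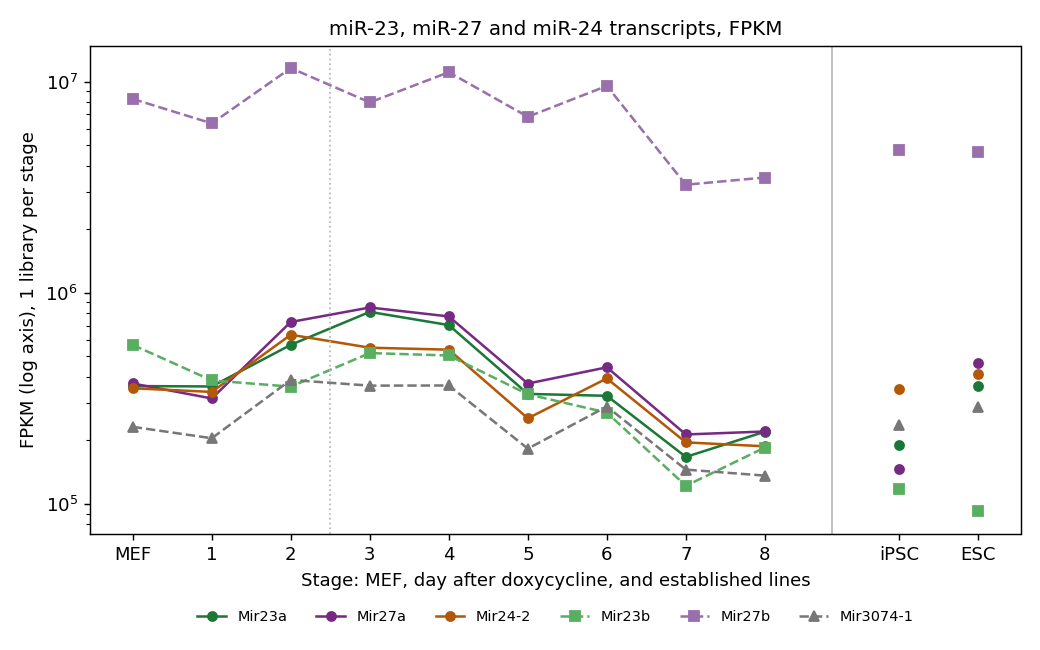
FPKM of the 5 measured members and of Mir3074-1 (vertical log axis) at each stage (horizontal axis: MEF, days 1 to 8, then iPSC and ESC); each point is 1 library, and the dotted line marks the start of human feeders. Mir27b lies above the others at every stage, all 5 members are lower on day 7 than on day 6, and Mir23b is the lowest of the 6 in iPSC and ESC.

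Counted over the members, 0 rose and 0 fell at an adjusted p under 0.05, and 1 (Mir23b) had an unadjusted p under 0.05. Across the 1419 transcripts tested the same fit called 23% in either direction, 12.5% rising (177) and 10.6% falling (150). These shares are at an adjusted p under 0.05. At an unadjusted p under 0.05 the share of all is at least as high, and it was not counted. The median slope of the 5 members was -0.14, beside 0.02 over all transcripts tested. A limma F-test of day and day squared, which also finds a rise followed by a fall, called 0 of 5 members (adjusted p from 0.0810 to 0.132). It called 32.6% of all transcripts tested. At an unadjusted p under 0.05 it held 3 members, a level at which the share of all is at least 32.6% and was not counted. With a pseudocount of 100 in place of 10 it called 3 members (Mir23a, Mir27a and Mir23b), against 32.1% of all, and Mir23b passed the slope test (limma adjusted p = 0.0320), against 11.1% falling among all.

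Steps between neighbouring days were then compared across the members. From MEF to day 1 all 5 were lower, by 1.00-fold (Mir23a, a difference below its counting error) to 1.47-fold (Mir23b), while 29.2% of the transcripts tested were lower. From day 1 to day 2, 4 of 5 were higher and Mir23b was not, beside 54.1% higher among the transcripts tested. From day 4 to day 5 all 5 were lower, by 1.53-fold to 2.12-fold, as were 57.1% of the transcripts tested. From day 6 to day 7 all 5 were lower again, by 1.95-fold to 2.94-fold, and so were 72.4% of the transcripts tested. The other steps were mixed. From day 2 to day 3, 3 of 5 were higher (41.0% of the transcripts tested were). From day 3 to day 4, 1 of 5 was higher (58.3% were). From day 5 to day 6, 3 of 5 were higher (55.4% were), and from day 7 to day 8, 4 of 5 (66.8% were). None of these steps has a test, since each is 1 library against 1 library.

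In miRNA RPM the step from day 6 to day 7 changed. On this scale the shares are over the transcripts tested whose gene ID was found in GENCODE, since implied reads need a length. From day 6 to day 7, 2 members were then higher and 3 lower, beside 47.7% lower among the transcripts tested. Of the 2, Mir24-2 was higher by less than its counting error (3847 and 3850 RPM). All 5 were again lower on day 1 than in MEF (31.5% of the transcripts tested were) and lower on day 5 than on day 4 (49.1% were). All 5 were higher on day 2 than on day 1, as were 60.0% of the transcripts tested. The remaining steps were mixed on this scale too. From day 2 to day 3, 3 of 5 were higher (43.0% were), and from day 3 to day 4, 1 of 5 (49.8% were). From day 5 to day 6, 4 of 5 were higher (57.3% were), and from day 7 to day 8, 2 of 5 (54.7% were). Mir23a read 1089 RPM in MEF, 940.4, 1732, 2645, 1949, 1093, 1118, 1154 and 1278 over days 1 to 8, then 575.9 in the iPSC and 1128 in the ESC line. Mir27a read 1714 in MEF, 1262, 3399, 4244, 3276, 1872, 2333, 2256 and 1959 over days 1 to 8, then 675.2 in the iPSC and 2225 in the ESC line. For both, day 1 was the lowest stage of the course, and day 8 was above MEF on this scale and below it in FPKM.

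Mir24-2 read 3028 RPM in MEF, 2522, 5502, 5092, 4243, 2384, 3847, 3850 and 3101 over days 1 to 8, then 3003 in the iPSC and 3641 in the ESC line, with its low in the course on day 5. Mir23b read 1644 in MEF, 967.2, 1057, 1625, 1347, 1048, 896.6, 811.0 and 1035 over days 1 to 8, then 339.9 in the iPSC and 276.2 in the ESC line. It was the only member below its level in MEF on every day from 1 to 8, and the only one whose lowest stage of the course was day 7 on this scale. On day 3 its difference from MEF (1625 and 1644 RPM) was within the counting error. Mir27b read 23144 in MEF, 15368, 32846, 24088, 28494, 20821, 30440, 20839 and 18947 over days 1 to 8, then 13223 in the iPSC and 13476 in the ESC line, with its low in the course on day 1. On reads rather than FPKM, Mir24-2 lay above Mir27a and Mir23a in every library, whereas FPKM divides its reads by the length of the longer hairpin.

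**Figure D2:**
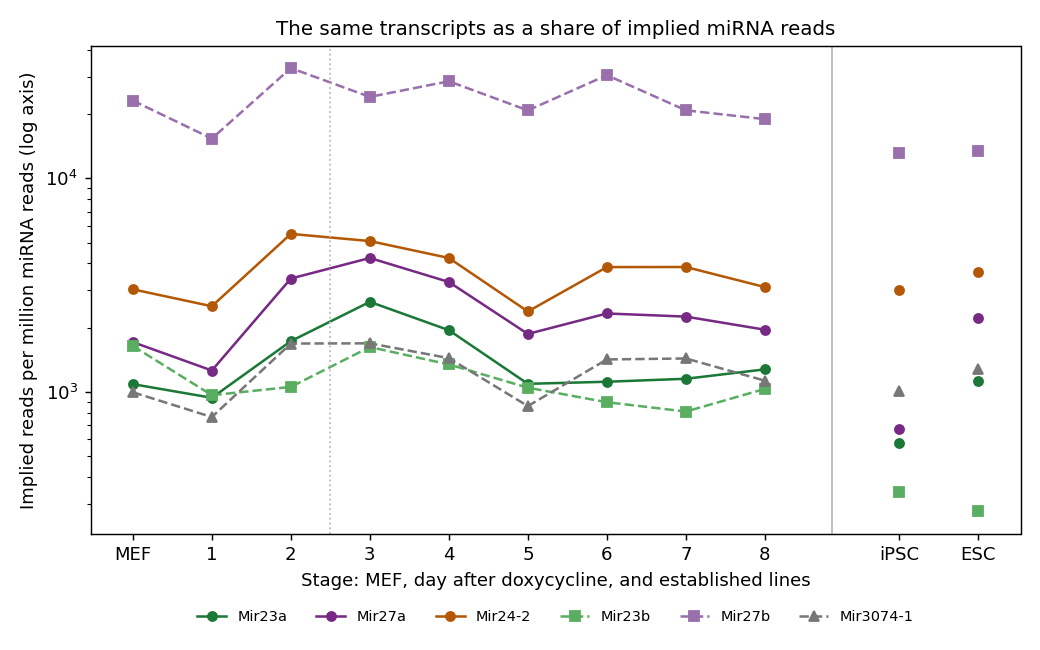
Implied miRNA RPM (vertical log axis) of the same transcripts at each stage, with 1 library a point. The 5 members are higher on day 2 than on day 1 and lower on day 5 than on day 4, and the drop from day 6 to day 7 seen in FPKM is not common to all 5.

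Scaled to miRNA reads, an alternative chosen after seeing the data, the slopes of the 5 members lay between -0.08 and 0.02 per day, and that of Mir27a turned to 0.02. This scaling moved the median slope of all transcripts tested by 0.12, from 0.02 to 0.14, so that the members lay below the median of all on either scale. It called 336 transcripts rising (23.7%) and 106 falling (7.47%), again with 0 members among them.

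Within the stages on feeders, days 3 to 8, every member had a steeper negative slope, of -0.45 (Mir23a), -0.43 (Mir27a), -0.33 (Mir24-2), -0.40 (Mir23b) and -0.31 (Mir27b) per day. On these 6 libraries Mir27a passed the threshold (limma adjusted p = 0.0474) and Mir23a did not (adjusted p = 0.0501), while 5.64% of all transcripts tested were called falling and their median slope was -0.10. These days begin at the highest levels of Mir23a and Mir27a and end with the libraries of low table share. Over the same days the fibroblast and mesenchymal list was at 31269188 summed FPKM on day 3 and 11370393 on day 8, where Mir143 alone read 7360140. The part of this list in the members' levels was not tested.

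**Figure D3:**
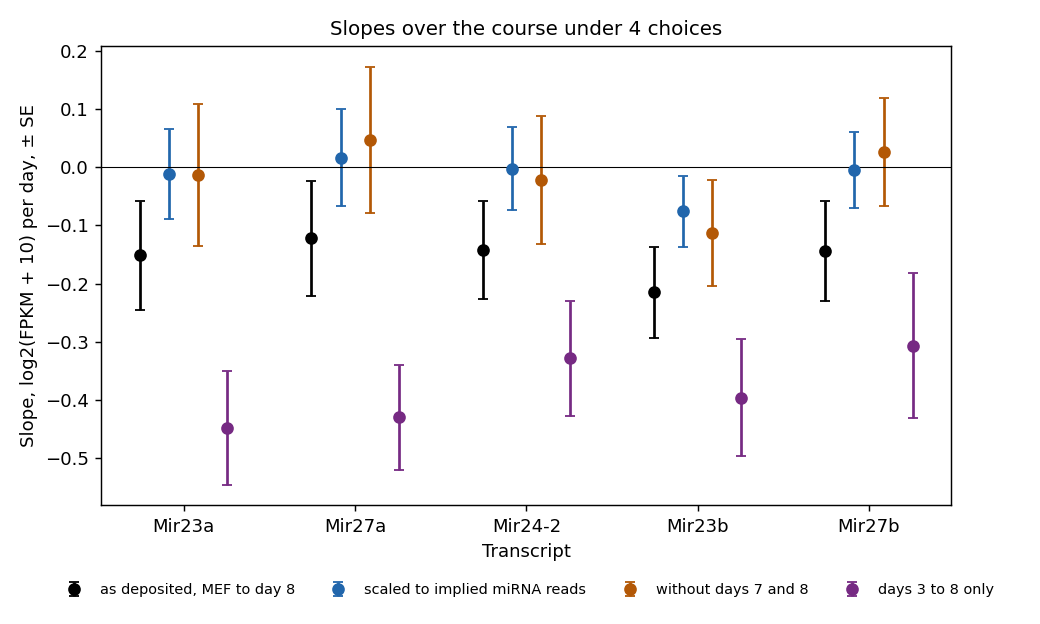
Slope per day of log2(FPKM + 10) (vertical axis) with its SE (bars) for each measured member (horizontal axis) under 4 choices of libraries and scale. The 5 slopes lie below 0 as deposited, between -0.08 and 0.02 when scaled to miRNA reads, between -0.11 (Mir23b) and 0.05 (Mir27a) without days 7 and 8, and between -0.45 and -0.31 on days 3 to 8 alone.

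The established lines differed from MEF mainly in Mir23b. It read 566973 FPKM in MEF, 117142 in iPSC and 92098 in ESC, that is 4.84-fold and 6.16-fold lower, and these were its lowest values in all 11 libraries. It was the only member at least 4-fold lower in both lines, a difference that 7.75% of the transcripts tested showed (7.61% when scaled to miRNA reads), and 0 members were at least 4-fold higher in both, as 29.7% of the transcripts were. With 1 library for each line there is no test of these differences.

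Mir27b, from the same cluster, was 1.75-fold lower in iPSC (4734220 FPKM) and 1.78-fold lower in ESC (4668260 FPKM) than in MEF. It therefore stood much nearer to its level in MEF than Mir23b did. Mir27b to Mir23b, the ratio of the neighbours, was 14.6 in MEF, 40.4 in iPSC and 50.7 in ESC.

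The 3 hairpins of the Mir23a cluster did not move together between the lines. Mir23a read 191156 FPKM in iPSC and 362261 in ESC, 1.89-fold below MEF in the one and level with it (1.00-fold) in the other. Mir27a read 146527 in iPSC and 467257 in ESC, 2.54-fold below and 1.26-fold above MEF, so that it was 3.19-fold higher in ESC than in iPSC. Mir24-2 read 350159 in iPSC and 410865 in ESC, both near its 353170 in MEF.

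The fibroblast and mesenchymal list differed in the same direction between the lines. Its summed FPKM was 6024738 in iPSC and 26405874 in ESC, with 0 of its 8 members at 0 in ESC, beside 25552846 in MEF. Mir143 was listed at 0 in MEF, so the sum of MEF lacks a row that the sum of ESC holds. In miRNA RPM the list summed to 18526 in iPSC, 82823 in ESC and 131249 in MEF, so that ESC lay below MEF on that scale. Other lists were also higher in ESC than in iPSC by summed FPKM, the epithelial (1537119.6 in iPSC, 2838384.5 in ESC) and the endothelial (204018 and 231538). The pluripotent, blood cell, muscle and neural lists were lower in ESC than in iPSC. Both lines were plated on human fibroblasts, and the part of these cells in the levels of Mir23a and Mir27a was not tested. Quantile normalization turned the differences of Mir23a, Mir27a and Mir24-2 between ESC and MEF to -0.65, -0.38 and -0.42 on the log2 scale, from 0.00, 0.33 and 0.22 as deposited. For iPSC it moved the same 3 to -1.71, -2.34 and -0.66, from -0.92, -1.34 and -0.01, so that Mir24-2 was no longer near MEF. It also turned the split of transcripts past 4-fold in both lines to 222 lower and 215 higher, from 110 and 421. Mir23b stayed at least 4-fold lower in both lines under all 5 alternatives tried.

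**Figure D4:**
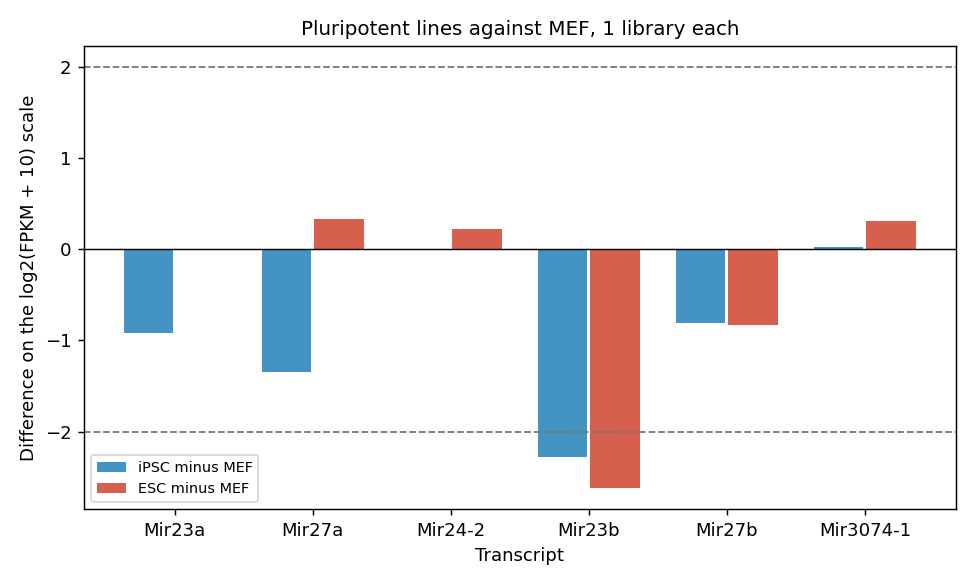
Difference of iPSC and of ESC from MEF (vertical axis, log2 of FPKM + 10) for each measured member and Mir3074-1, with 1 library a stage and lines at a 4-fold change. Mir23b is past the 4-fold line in both lines of cells, at -2.27 and -2.62, and Mir27a has the widest gap between iPSC and ESC.

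By FPKM over the 11 libraries, Mir23a and Mir27a were ordered alike at the top, with day 3, day 4, day 2 and ESC, while Mir23b ran from MEF down to iPSC and ESC. With 1 library a stage the spread within a stage is unknown, so neighbours in these orders cannot be separated.

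The proportion of the paralogs was then compared, since a ratio within a library does not depend on its depth. Mir23a to Mir23b was 0.638 in MEF, 0.936 on day 1, 1.58 on day 2, 1.57 on day 3, 1.39 on day 4, 1.00 on day 5, 1.20 on day 6, 1.37 on day 7 and 1.19 on day 8, and then 1.63 in iPSC and 3.93 in ESC. MEF and day 1 were the only libraries in which Mir23b read higher than Mir23a. On day 5 Mir23a (332093 FPKM) and Mir23b (330730 FPKM) were level within the counting error. Across the 9 libraries of the course the log2 ratio had a Pearson r with day of 0.42 (exact permutation test, two-sided, p = 0.268, adjusted over 3 ratios p = 0.805) and a Spearman rho of 0.18 (exact permutation p = 0.644, adjusted p = 0.644). Without MEF and day 8, the 2 libraries farthest from the median day, r was 0.06.

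Mir27a to Mir27b was between 0.0449 (MEF) and 0.107 (day 3) in the course, 0.0310 in iPSC and 0.100 in ESC, so Mir27b was the higher row throughout. Its log2 ratio had an r with day of 0.15 (exact permutation p = 0.711, adjusted p = 0.853) and a rho of 0.25 (exact permutation p = 0.521, adjusted p = 0.644), and r was -0.12 without MEF and day 8. Mir23a and Mir27a summed, over Mir23b and Mir27b summed, had an r of 0.08 (exact permutation p = 0.853, adjusted p = 0.853) and a rho of 0.20 (exact permutation p = 0.613, adjusted p = 0.644), and r was -0.27 without those libraries. FPKM divides by hairpin length, and this widened the gap between Mir27b and Mir27a. By implied reads Mir27b was 5.68-fold (day 3) to 19.6-fold (iPSC) above Mir27a, beside 9.37-fold to 32.3-fold by FPKM. The summed ratio left out Mir24-2, and Mir27b was much the larger part of its lower term (8288600 FPKM in MEF, beside 566973 for Mir23b). A trend in these ratios was thus not detectable in these 9 libraries.

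**Figure D5:**
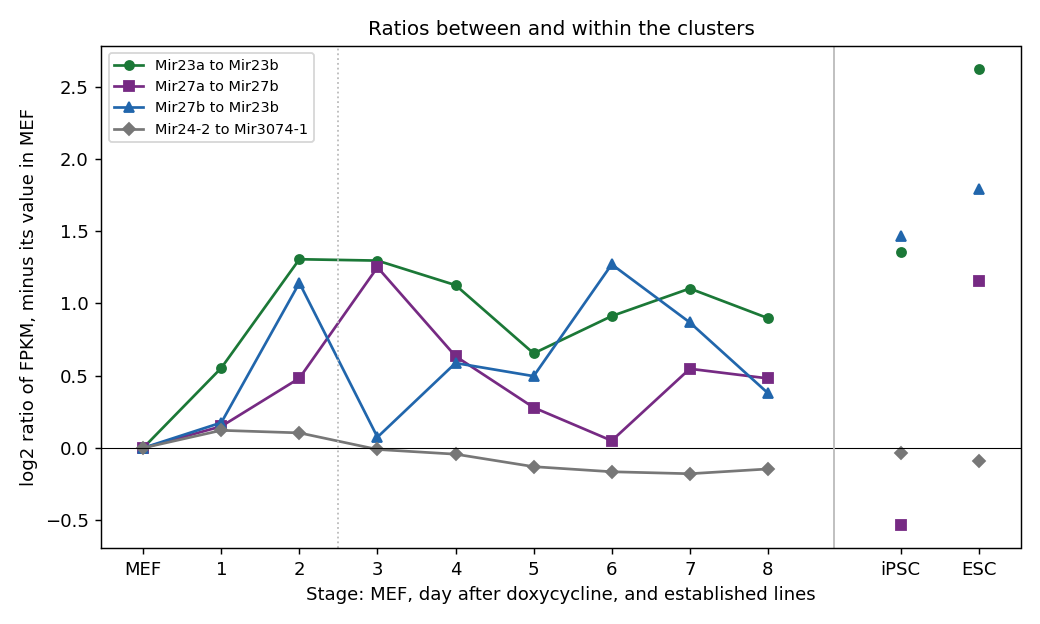
Log2 ratio of FPKM between 2 transcripts, minus its own value in MEF (vertical axis), at each stage (horizontal axis), with 1 library a point, the dotted line at the start of feeders. Mir23a to Mir23b is lowest in MEF (a ratio of 0.638) and highest in ESC (3.93), whereas Mir27a to Mir27b is highest on day 3 (0.107) and lowest in iPSC (0.0310), and Mir24-2 to Mir3074-1 stays between 1.35 and 1.66.

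Within the Mir23a cluster Mir24-2 kept a closer proportion to Mir27a during the course than in iPSC. Mir24-2 to Mir27a ranged from 0.645 to 1.07 over the 9 libraries of the course and was 0.879 in ESC, but 2.39 in iPSC. Mir27a to Mir23a was 0.767 in iPSC, a little below its range of 0.877 to 1.36 in the course. Over the 11 libraries Mir24-2 had an r of 0.84 with Mir23a and 0.79 with Mir27a (0.72 and 0.75 on miRNA RPM). On the other chromosome r was 0.77 between Mir23b and Mir27b (0.71 on miRNA RPM).

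Mir3074-1, read from the Mir24-1 locus, had its highest correlation among the members with Mir24-2 on chromosome 8. It read 231861 FPKM in MEF, 386620 on day 2, 136179 on day 8, 235684 in iPSC and 287259 in ESC. Mir24-2 to Mir3074-1 stayed between 1.35 and 1.66 in all 11 libraries (r = 0.99 on log2 FPKM, 0.96 on miRNA RPM), while Mir23b to Mir3074-1 ranged from 0.321 in ESC to 2.45 in MEF (r = 0.41 and 0.13). Mir27b to Mir3074-1 lay between, from 16.3 in ESC to 37.3 on day 5 (r = 0.80 on log2 FPKM, 0.60 on miRNA RPM). The mature strand of miR-24-3p is common to the Mir24-2 and Mir24-1 loci, as the printed sequences show, and whether the row of Mir3074-1 holds reads of miR-24-3p was not tested.

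Of 398 other miRNA transcripts with a mean of at least 1000 FPKM and no 0, those most like the mean of the 5 members over the 11 libraries were Mir188 (r = 0.94), Mir362 (0.91), Mir320 (0.90), Mir98 (0.90) and Mirlet7g (0.88). On miRNA RPM Mir320 (0.86), Mir98 (0.83) and Mirlet7g (0.80) were the 3 nearest, and Mir188 was at 0.70. Most like the Mir23a cluster were Mir3074-1 (0.90), Mir188 (0.88) and Mir153 (0.87), which stood at 0.83, 0.60 and 0.57 on miRNA RPM, with 0, 13 and 21 candidates above them. Most like Mir23b and Mir27b were Mir212 (0.95), Mir362 (0.94) and Mir3109 (0.93), at 0.82, 0.83 and 0.83 on miRNA RPM, with 7, 4 and 5 candidates above them. These are descriptions over 11 libraries that all rows share.

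Other miRNAs known from vessels and their walls were taken as a list. Of 13 tested, 0 rose, 5 fell and 8 did neither, with a median slope of -0.13 beside 0.02 over all transcripts tested, of which 10.6% fell. Over the 895 miRNAs tested alone the median slope was -0.06 and 17.7% fell. Mir10b, which lies in a Hox cluster, read 38849200 FPKM in MEF and 1745500 on day 8 (slope -0.62 ± 0.07 (SE), limma adjusted p = 0.000778). Mir132, an angiogenic miRNA, read 36292 in MEF and 3050 on day 8 (slope -0.47), and Mir218-1, hosted by a Slit gene, read 70254 and 11541 (slope -0.44). Mir155 and Mir218-2 also fell. Scaled to miRNA reads, 1 rose (Mir221) and 4 fell (Mir10b, Mir132, Mir155 and Mir218-1), and the median slope was 0.01 beside 0.14 over all. Mir126, the endothelial miRNA, did neither (slope 0.05).

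Among miRNAs reported as repressed by Myc, 27 had a row and 26 were tested, of which 0 rose, 9 fell and 17 did neither, with a median slope of -0.09, beside the same 0.02 and 10.6% falling over all transcripts and -0.06 and 17.7% over miRNAs alone. The steepest were let-7 genes, whose products hold back the pluripotent state. Mirlet7i read 8414990 FPKM in MEF and 869298 on day 8 (slope -0.43 ± 0.07 (SE), limma adjusted p = 0.00274), Mirlet7d read 304365 and 41635 (slope -0.42), and Mirlet7c-2 read 923966 and 210315 (slope -0.27). Scaled to miRNA reads Mirlet7i (slope -0.29, limma adjusted p = 0.00470) and Mirlet7d (slope -0.28, adjusted p = 0.00710) fell, while Mir34a (0.24) and Mir15a (0.26) rose, so the list then counted 2 in each direction, with a median slope of 0.05. The clusters of miR-23, miR-27 and miR-24, of which Myc is known to repress miR-23, gave 0 calls of 5 on either scale, beside 10.6% falling among all transcripts (7.47% scaled). The median slope of the 5 was -0.14 as deposited, and no difference between the members and this list was tested.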

How the data were processed

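Small RNA was sequenced in 11 libraries, 1 a stage, from total RNA with the TruSeq small RNA kit and gel size selection, per the labels' protocols. The authors deposited 1 table of FPKM for small RNA genes, with 0 columns of other samples. Per the submitters' processing notes CASAVA 1.8.2, Bowtie2 2, Cufflinks 2.2.1 and mm10 were used, without stated roles. For the annotation, reads with several loci, strand and the table's filter, the procedure is not given in the sources used here. In GENCODE vM21, 3712 gene IDs were found and 147 were not. Hairpins are shorter than the assumed fragments and their FPKM depends strongly on length, so levels of different transcripts compare less safely than stages of one.

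Reads were implied from the steps of values below 200 FPKM, with a Gaussian fragment length of 200 ± 80 nt. Of low values, 89.4% to 96.5% per library were whole within 0.05 read; these values also set the steps, so this is no independent check. No count test was run. The 1419 transcripts (895 miRNAs) that averaged 10 FPKM or more were fitted as log2(FPKM + 10) with limma 3.58.1 in R 4.3.3 over MEF (day 0) and days 1 to 8 (7 residual degrees of freedom, 2.53 prior, prior SD 0.877), with Benjamini-Hochberg adjustment over all of them and a threshold of 0.05. The slope fit alone was tested on simulated data, with independent noise in each library. Log2 ratios were tested against day by exact permutation; the ratio of Mir24-2 to Mir24-1 could not be computed, which left 3 ratios. Lines were compared with MEF by fold, called at 4-fold in both.

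Named were the 6 members, the 5 miRNAs most like all of them and the 3 most like each cluster, and of each list the 3 steepest called. The members and lists were chosen with earlier results of these data known. Alternatives were other pseudocounts, filters and scalings, miRNAs alone, fewer days and each library left out; scaling to implied miRNA reads was added after seeing the data.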

Additional observations from a re-analysis of the deposited data

How the results depend on the processing

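Depth was implied from a model and the spread between cultures is unknown. No paired analysis was possible because each stage had 1 library. Of 95 slopes of the 5 members under 19 alternatives each, 91 were below 0 and 4 above, and 2 passed the threshold; the 45 slopes with 1 library left out were all below 0 and 0 passed. The number of members falling was 1 with pseudocount 100 and 1 on days 3 to 8, and the F-test called 3 with pseudocount 100; without a library these counts were 0 to 0. The slope of Mir27a was 0.017 scaled to implied miRNA reads (a scaling added after seeing the data) and 0.047 without days 7 and 8, that of Mir27b was 0.032 under quantile normalization and 0.027 without days 7 and 8, and that of Mir3074-1 was 0.012 scaled to summed miRNA FPKM, 0.033 scaled to implied miRNA reads and 0.019 without days 7 and 8. Transcripts rising, 177 as reported, numbered 313 scaled to summed miRNA FPKM, 336 scaled to implied miRNA reads, 111 among miRNAs alone, where fewer were tested, 66 on days 3 to 8 and 93 to 175 with 1 library left out (93 without MEF, 110 without day 1 and 114 without day 6). Transcripts falling, 150 as reported, numbered 69 without days 7 and 8, 80 on days 3 to 8 and 97 to 170 with 1 library left out (97 without day 7 and 98 without day 8). The r of the ratios with day was -0.43 (Mir23a to Mir23b), -0.57 (Mir27a to Mir27b) and -0.54 (the summed clusters) on days 3 to 8, and -0.012 for the summed clusters without days 7 and 8. With 1 library left out it ranged from -0.024 to 0.59, from -0.10 to 0.45 and from -0.18 to 0.32, and it was below 0 in each case without MEF. Where no value above shows it, the cause was not tested.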
